A study of Mus musculus with 10 samples.

Results

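The epidermal growth factor (EGF) family was followed in colon tumors of CYP1A-humanized mice and in the normal epithelium beside them. The family was taken as 6 ligands (Areg, Ereg, Hbegf, Egf, Tgfa, Btc) and 3 ErbB receptors (Egfr, Erbb2, Erbb3). Its members were found as the gene probes of the array whose accession maps through RefSeq to those symbols. Of the 9 genes, 7 had a probe, 9 probes in all of 34312 gene probes, and all 7 passed the filter on dim probes among 14478 genes tested. No gene probe mapped to Erbb2 or Erbb3, which are not analysed here.

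The series holds 7 tumors, labelled tubular adenomas with a dominant active Ctnnb1 mutation, and 3 samples of adjacent normal epithelium with wild-type Ctnnb1. All 10 samples came from 3 mice humanized for CYP1A, enzymes that activate dietary carcinogens, on AIN93M diet. PhIP, a carcinogen of grilled meat, was given to them in 2 doses of 100 mg/kg at the age of 6 weeks. Dextran sulfate sodium (DSS), an agent of epithelial injury and colitis, followed at 1.5% for 1 week. They were then left untreated for 8 weeks and sampled at 16 weeks of age. Mouse 41 (male) and mouse 42 (female) each gave 3 tumors and 1 normal sample, and mouse 43 (male) gave 1 tumor and 1 normal sample. The normal samples share the carcinogen and DSS with the tumors, and tumors of the same mouse are not independent animals.

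EGF family ligands are made as membrane-anchored precursors. Cell-surface metalloproteases, chiefly Adam10 and Adam17, cut them free to bind ErbB receptors, which pair and signal through the RAS to ERK cascade and through PI3K and AKT. Egf, Tgfa and Areg bind Egfr, whereas Hbegf, Btc and Ereg can also bind Erbb4. In the intestine this signal sustains crypt proliferation and repair after injury. Lrig1, a membrane protein of crypt stem cells, restrains the receptors.

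Each array was read in 1 colour, and levels below are normalized log2 intensities, comparable between samples for the same probe and not between probes. Differences are tumor minus normal on the log2 scale, from limma with the mouse as a block, and a change was called at a Benjamini-Hochberg adjusted p under 0.05 over all genes. The share of gene probes above background ran between 57.7% and 66.7% over the arrays. All 10 colon epithelium markers were above background on all 10 arrays. Of them, 7 were called lower in tumors and 1 higher, beside 23.7% and 25.9% of all genes. Their mean level was 12.06 to 12.89 in tumors, against 12.95 to 12.98 in normals. The mean level of squamous epithelium markers was 9.39 for the mouse 43 tumor and 9.59 for the mouse 42 normal, while the remaining 8 arrays had 7.15 to 7.59. The scans of 4 tumors and of no normal are named as redipped or rescanned, and were made at later hours than the rest. They are called the later session below.

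Egf fell, and Btc and Tgfa rose, in the tumors, while the other 4 measured members did not pass the test. The rise of Tgfa did not pass with the median pixel of each spot (0.03) or from the authors' deposited values (0.04). That of Btc narrowly missed the threshold with the median pixel (1.00). The 3 calls among 7 members stand beside 49.6% of all genes called. The 2 members called higher stand beside 25.9% of genes and the 1 called lower beside 23.7%. The median difference of the 6 ligands was 0.27, against 0.01 over all genes.

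Egf encodes the founding ligand of the family. Its level was 6.24 in the lowest tumor, 6.37 in the median tumor and 6.39 in the highest, against 7.88, 8.10 and 8.01 in the normals of mouse 41, mouse 42 and mouse 43. All 7 tumors lay below all 3 normals, as 20.0% of genes did. The difference was -1.67 ± 0.07 (SE, 7 tumors and 3 normals, limma adjusted p = 5.8e-06), a 3.17-fold lower level in tumors. Before normalization the spots stood 16 to 38 intensity units above their local background in tumors, against 155 to 174 in normals. Egf was above background in 5 of 7 tumors and 3 of 3 normals, and the size of the fall varied with the treatment of the background. It was -3.15 with plain background subtraction, -2.60 in the authors' deposited values and -1.11 with the median pixel of each spot, and passed the test each time.

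Markers of absorptive colonocytes fell together with Egf. All 6 that were tested were called lower, beside 23.7% of all genes. Their mean level was 7.65 to 10.19 in tumors, against 11.59 to 11.97 in normals. Tumor 3 of mouse 41 had the highest absorptive level among the tumors, 10.19, and its Egf level of 6.38 was within the range of the other tumors. Over the 7 tumors, where Egf was near background, its Pearson correlation with the mean absorptive level was 0.50. In a bulk sample, fewer cells of a type and less RNA per cell cannot be told apart, and the part of the absorptive cells in the fall of Egf was not tested.

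Btc encodes betacellulin, a ligand of both Egfr and Erbb4. Its level was 9.30, 9.50 and 9.65 in the lowest, median and highest tumor, against 8.90, 8.54 and 8.58 in the normals of mouse 41, mouse 42 and mouse 43. All 7 tumors lay above all 3 normals, as 21.4% of genes did. The difference was 0.80 ± 0.09 (SE, limma adjusted p = 0.00016), or 1.74-fold higher in tumors. Each tumor exceeded the normal of its own mouse, by 0.59 to 1.11. The rise was 1.37 in the authors' deposited values. With the median pixel of each spot it was 1.00 and missed the threshold (limma adjusted p = 0.0527), although the tumors still lay above the normals.

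Btc sits at one end of a run of EGF ligand genes on mouse chromosome 5. In the RefSeq order of protein-coding genes (GRCm38.p6, used for order only), Epgn, Ereg, Areg and Btc follow each other with no other protein-coding gene between them. The 4 neighbours did not share a result. Epgn, which encodes epigen, differed by 0.03, Ereg by 1.18, Areg by 0.11 and Btc by 0.80, and Btc alone of the 4 passed the test. The differences between neighbours were not tested.

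The 250 bases before the start of Egf, of Btc and of Areg are shown because these genes gave the fall, the clearest rise and, in Areg, a neighbour of Btc that did not pass the test. They are RefSeq sequences of build GRCm38.p6, at chr3:129755323-129755572 on the minus strand for Egf, chr5:91402995-91403244 on the minus strand for Btc and chr5:91139349-91139598 on the plus strand for Areg. Capitals mark matches to any of 5 motifs on either strand. Egf has 2 listed starts, and only the window of the first is given here.
Egf: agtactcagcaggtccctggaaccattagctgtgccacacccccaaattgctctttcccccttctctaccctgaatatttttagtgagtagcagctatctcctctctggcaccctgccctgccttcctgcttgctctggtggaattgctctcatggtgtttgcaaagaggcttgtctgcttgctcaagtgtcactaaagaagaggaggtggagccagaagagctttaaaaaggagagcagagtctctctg
Btc: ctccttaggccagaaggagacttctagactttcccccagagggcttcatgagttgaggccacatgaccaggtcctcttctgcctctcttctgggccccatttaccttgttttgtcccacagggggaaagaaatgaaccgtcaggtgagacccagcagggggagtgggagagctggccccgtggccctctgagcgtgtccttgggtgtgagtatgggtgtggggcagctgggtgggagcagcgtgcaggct
Areg: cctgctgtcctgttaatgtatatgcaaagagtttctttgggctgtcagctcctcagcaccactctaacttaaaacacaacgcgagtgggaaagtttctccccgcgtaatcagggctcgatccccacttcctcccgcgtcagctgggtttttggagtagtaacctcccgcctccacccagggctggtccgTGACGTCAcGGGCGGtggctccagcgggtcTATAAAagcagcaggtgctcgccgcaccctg

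Areg held a cyclic AMP response element (TGACGTCA), present in 1.55% of the 32851 promoter windows of that length in the table. It also held a GC box (GGGCGG, in 32.74% of windows) and a TATA box (TATAAA, in 12.37%), which begin 61, 52 and 31 bases before the start. No match to these motifs, to the AP-1 motif TGANTCA (6.75% of windows) or to the TCF motif ATCAAAG (3.21%) was in the Egf or Btc window. A match describes letters only. The Tgfa window, not shown, held 2 GC boxes and no other match. Of the 9 family genes, 6 had a promoter in the table.

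Tgfa encodes transforming growth factor alpha, an Egfr ligand. Its level was 8.08, 8.36 and 8.66 in the lowest, median and highest tumor, against 7.90, 7.93 and 7.97 in the normals of mouse 41, mouse 42 and mouse 43. The groups did not overlap, with all tumors above all normals, as for 21.4% of genes. The difference was 0.44 ± 0.10 (SE, limma adjusted p = 0.0061), or 1.36-fold higher in tumors. The highest tumor, 8.66, was that of mouse 43, one of the 2 arrays with high squamous markers. Without both arrays and with no replicate block the difference was 0.34 and passed. The call rests on the mean pixel of the spots, which was 1.67 to 3.47 times the median pixel for this probe. With the median pixel the levels were 7.10 ± 0.18 in tumors and 7.09 ± 0.20 in normals (SD, n = 7 and 3). The groups then overlapped, and the difference was 0.03 (limma adjusted p = 0.92). The authors' deposited values gave 0.04. With the scan session as a block it was 0.32 (limma adjusted p = 0.056), and within the earlier session 0.27.

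**Figure D1:**
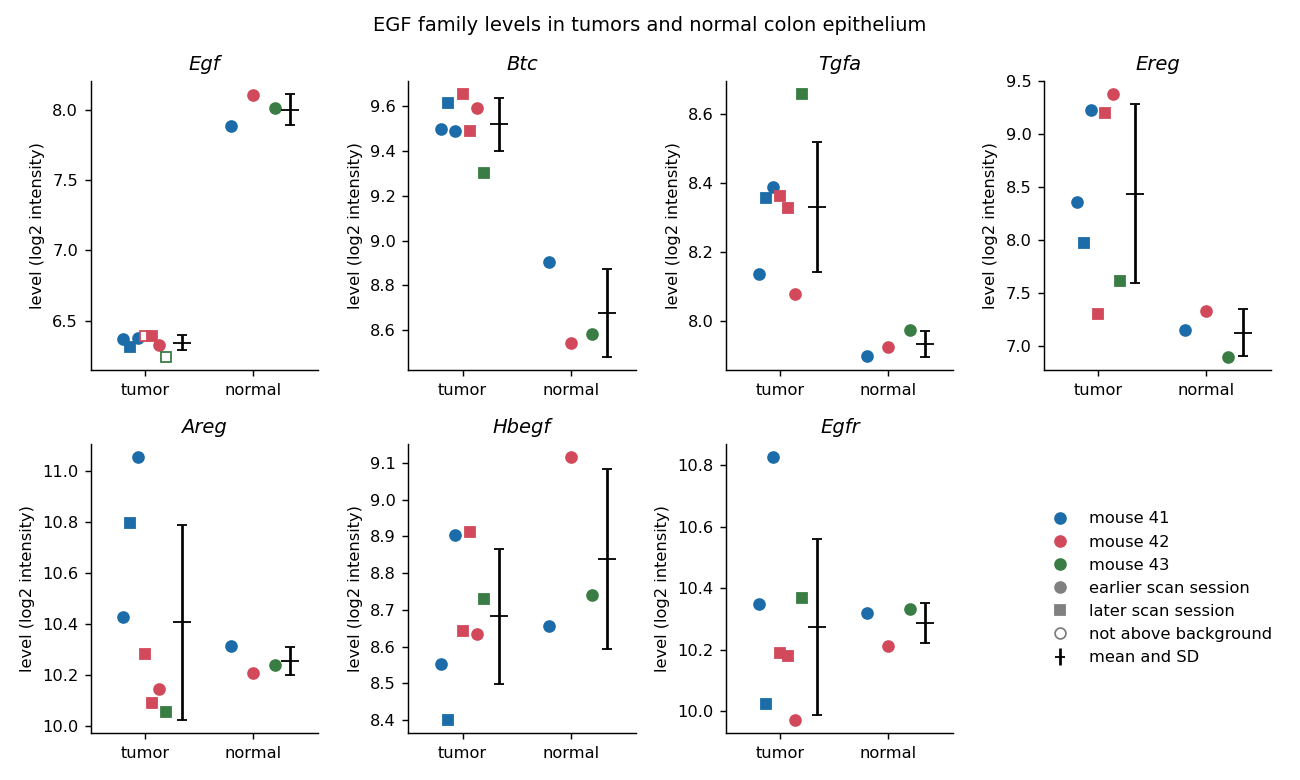
Level (normalized log2 intensity, a scale of its own in each panel) of the 7 measured EGF family genes in 7 tumors and 3 normals, 1 point per array, coloured by mouse, with the mean and SD of each group; squares mark the later scan session and open points spots not above background. The tumors lie below the normals for Egf (6.24 to 6.39 against 7.88 to 8.10) and above them for Btc and Tgfa, and Ereg spreads over 7.30 to 9.38 among the tumors.

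Ereg encodes epiregulin, a ligand of Egfr and Erbb4 that is induced in injured epithelium and stroma. It had the widest spread of the family among tumors. Its level was 8.35, 7.97 and 9.23 in tumors 1, 2 and 3 of mouse 41, 7.30, 9.20 and 9.38 in those of mouse 42 and 7.61 for the mouse 43 tumor, against 7.15, 7.33 and 6.89 in the normals of mouse 41, mouse 42 and mouse 43. High and low tumors thus came from the same animal, and 6 of 7 tumors lay above the normal of their own mouse. Tumor 1 of mouse 42 was at the level of its normal. The SD among tumors was 0.85, more than that of 98.81% of genes.

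The difference of Ereg was 1.18 ± 0.45 (SE), or 2.27-fold higher in tumors, and did not pass the test (limma adjusted p = 0.054, 95% interval 0.17 to 2.19). With 1 sample or mouse left out it ran from 1.04 to 1.41. The 1.41 came without tumor 1 of mouse 42, the tumor lowest in Ereg, and passed (limma adjusted p = 0.0056). Ereg passed in 11 of 28 alternatives, among them that with no replicate block for the mouse (1.31, limma adjusted p = 0.029). It also passed with the session of scanning added as a block (1.79) and among the earlier arrays alone (1.82). It did not pass with the median pixel of each spot (1.05), from the authors' deposited values (1.57) or as the mean of its probes (0.70). Ereg was 8.35 to 9.38 in the 3 tumors of the earlier session and 7.30 to 9.20 in the 4 of the later one. The second Ereg probe was above background in 3 of 7 tumors and 0 of 3 normals. Its levels had a Pearson correlation of 0.92 with the first over the 10 arrays, and it differed by 0.22 ± 0.10 (SE, limma adjusted p = 0.11).

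Fibroblast and macrophage markers were higher in tumors, 8 of 8 and 5 of 6, beside 25.9% of all genes called higher. The same share stands beside the neutrophil and endothelial counts below. The mean fibroblast level was 9.93 to 11.30 in tumors, against 9.16 to 9.48 in normals, and the mean macrophage level 10.51 to 11.17 in tumors, against 9.21 to 9.56 in normals. Neutrophil markers rose in 5 of 5 cases, with mean levels of 9.09 to 9.70 in tumors, against 7.31 to 8.46 in normals. Tumor 1 of mouse 42, whose Ereg was at the normal level, had the highest macrophage level, 11.17, a neutrophil level of 9.50 and a fibroblast level of 10.83. Pearson correlations of Ereg over the 7 tumors were 0.52 with fibroblast, -0.11 with macrophage and -0.06 with neutrophil markers. Endothelial markers rose in 6 of 6 cases, with mean levels of 7.82 to 8.37 in tumors, against 7.12 to 7.61 in normals. Over the 7 tumors Btc had Pearson correlations of 0.73 with endothelial, 0.68 with macrophage and 0.65 with fibroblast markers. Its correlation was -0.80 with squamous markers and 0.04 to 0.35 with neutrophil, absorptive, colon epithelium and smooth muscle markers. The mouse 43 tumor had the lowest Btc (9.30), fibroblast (9.93) and endothelial (7.82) levels among the tumors. Its squamous level was 9.39, against 7.15 to 7.30 in the other tumors. The correlations of Btc with fibroblast, endothelial and squamous markers therefore lean on that tumor. The part of fibroblasts, macrophages, neutrophils and endothelial cells in the levels of Ereg, Btc and Tgfa was not tested.

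Over the 10 arrays, the gene most like Ereg was Ptgs2, which encodes the inducible cyclooxygenase of prostaglandin synthesis. Their levels had a Pearson correlation of 0.98 over the 10 arrays and 0.99 over the 7 tumors, and 0.92 over the 10 arrays with the median pixel. Ptgs2 was 8.55, 8.67 and 8.94 in the 3 tumors with Ereg above 9, namely tumor 3 of mouse 41 and tumors 2 and 3 of mouse 42. In tumor 1 of mouse 42 it was 7.15, against 7.08 in the normal of that mouse. The matrix protease Adamts1 (0.94) and the calmodulin gene Calm2 (0.94) came next, with 0.85 and 0.59 under the median pixel. These were the best of 9949 genes compared, and the arrays share 3 animals and the split into tumors and normals.

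**Figure D2:**
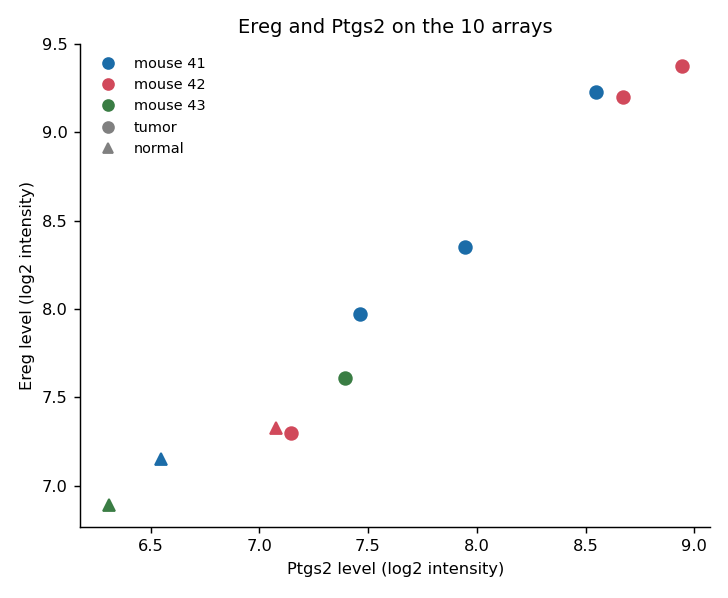
Level of Ereg (y axis) against Ptgs2 (x axis), both in normalized log2 intensity, on the 10 arrays, coloured by mouse, with tumors as circles and normals as triangles. The 3 tumors with the highest Ereg, 9.20 to 9.38, also have the highest Ptgs2, 8.55 to 8.94, and tumor 1 of mouse 42 sits beside the normal of its mouse.

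Areg encodes amphiregulin, an Egfr ligand of wound repair. Its level was 10.42, 10.79 and 11.05 in the tumors of mouse 41, 10.28, 10.09 and 10.14 in those of mouse 42 and 10.05 in that of mouse 43, against 10.31, 10.21 and 10.24 in the normals of mouse 41, mouse 42 and mouse 43. The tumors of mouse 41 lay above their normal, those of mouse 42 lay on either side of theirs, and that of mouse 43 lay below. The tumor minus normal difference was 0.11 ± 0.15 (SE, limma adjusted p = 0.59, 95% interval -0.24 to 0.45). The median pixel gave -0.30 and the authors' deposited values -0.35, neither past the test.

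Tumors of mouse 42 were 0.59 lower in Areg than those of mouse 41 on the log2 scale (difference -0.59 ± 0.16, SE, 3 tumors each). The unadjusted p was 0.0070 in limma and the adjusted p 0.16, so it did not pass. Across all genes 0.221% passed this comparison, and 0 of 7 family members did. By unadjusted p under 0.05, 17.3% of genes and 1 of the members, Areg, passed. The mean level of the colon epithelium markers was 12.28, 12.48 and 12.89 in the tumors of mouse 41, 12.26, 12.09 and 12.06 in those of mouse 42 and 12.10 in that of mouse 43. Over the 7 tumors this mean level had a Pearson correlation of 0.97 with Areg, against -0.65 to 0.78 for the other marker lists. The part of the colon epithelium level in the Areg difference was not tested, and mouse and sex cannot be told apart here. The tumor minus normal effects of mouse 42 and mouse 41 did not differ past the test for any of the 7 members in limma, against 0.401% of all genes. By unadjusted p under 0.05, 0 members and 7.14% of genes passed.

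Hbegf encodes heparin-binding EGF-like growth factor. Its level was 8.40, 8.64 and 8.91 in the lowest, median and highest tumor, against 8.66, 9.12 and 8.74 in the normals of mouse 41, mouse 42 and mouse 43. The highest array was the normal of mouse 42, and the groups overlapped. The difference was -0.16 ± 0.13 (SE, limma adjusted p = 0.33, 95% interval -0.46 to 0.13). That normal is one of the 2 arrays with high squamous markers. Without both of them and with no replicate block the difference was -0.02.

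Egfr, the receptor of all 6 ligands, had a level of 9.97, 10.19 and 10.83 in the lowest, median and highest tumor, against 10.32, 10.21 and 10.33 in the normals of mouse 41, mouse 42 and mouse 43. Tumors lay on either side of the normals. Its difference was 0.00 ± 0.15 (SE, limma adjusted p = 0.99, 95% interval -0.35 to 0.35). The second Egfr probe differed by -0.09 ± 0.15 (SE, limma adjusted p = 0.65), and the 2 probes had a Pearson correlation of 0.77 over the 10 arrays. Tumor 3 of mouse 41 was the highest tumor for both probes, at 10.83 and 8.29.

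For the other measured members the most similar genes were also taken over the 10 arrays. Egf went with Cyp2d10, Pbld2 and Acvr1b (Pearson correlations of 0.99 to 1.00), all called lower in tumors. Btc went with Igfbp4, Eif4a1 and Slc14a1 (0.99 each), all called higher. Over the 7 tumors alone, where Egf was near background, the 3 correlations with Egf were 0.21, 0.77 and 0.43 in the same order. With the median pixel the 10-array values were 0.95, 0.98 and 0.61 for the matches of Egf and 0.84, 0.48 and 0.66 for those of Btc. The best matches of Areg (Prelp, M6pr and Myl7), Hbegf (Prkx, Kctd9 and Fan1), Tgfa (Smarcb1 and Lamb3) and Egfr (Tnfaip1, Mtf2 and Selenoi) had correlations of 0.82 to 0.95. With the median pixel these 11 correlations lay between -0.44 and 0.52.

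The other ErbB ligands and Erbb4 added 1 fall. Nrg4, a neuregulin that binds Erbb4, was 6.50 to 6.92 in tumors, against 7.16, 7.20 and 7.20 in the normals of mouse 41, mouse 42 and mouse 43. Its difference was -0.46 ± 0.10 (SE, limma adjusted p = 0.0042), and 7 of 7 tumors lay below the normal of their own mouse. The fall of Nrg4 did not pass with the median pixel (-0.19), from the authors' deposited values (-0.60) or within the earlier scan session (-0.41). Epgn (0.03 ± 0.09, SE) and Nrg3 (0.00 ± 0.07, SE) did not pass. The Nrg1 probe was above background on 1 array and was not tested, and Nrg2 and Erbb4 are not analysed here.

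Genes that free the ligands went both ways, with 5 of 12 tested members higher, 5 lower and a median difference of 0.08, beside 25.9% of all genes higher, 23.7% lower and a median of 0.01. Adam12, Adam8 and Adam19, metalloproteases like the main sheddases, rose by 1.83 ± 0.19, 1.54 ± 0.22 and 1.10 ± 0.12 on the log2 scale (SE, limma adjusted p = 0.00011, 0.00047 and 0.00013). All 7 tumors lay above all 3 normals for each, as for 21.4% of all genes. Adam12 was above background in 7 of 7 tumors and 2 of 3 normals. It was 1.08 as the mean of its probes, and 0.34 (limma adjusted p = 0.057) for the probe left when all 10 arrays had to be above background. Adam10 and Adam17, the main sheddases, singled out here after their values were seen, rose by 0.84 ± 0.13 and 0.29 ± 0.10 (SE, limma adjusted p = 0.00070 and 0.032). Adam15, a disintegrin metalloprotease, fell by 0.78 ± 0.10 on the log2 scale (SE, limma adjusted p = 0.00031). The other falls were Adam9, the rhomboid protease Rhbdl2 and the brush border meprins Mep1a and Mep1b, at -0.24, -1.31, -3.47 and -2.06.

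Among genes that dampen the receptors, 3 of 12 tested were higher and 4 lower, with a median difference of -0.14. These counts stand beside 25.9% and 23.7% of all genes. Lrig3, a relative of Lrig1, was 8.88 to 9.36 in tumors, against 10.92, 11.17 and 11.22 in the normals of mouse 41, mouse 42 and mouse 43. It fell by 1.96 ± 0.12 on the log2 scale (SE, limma adjusted p = 1.6e-05), or 3.89-fold. Lrig1 was 8.89 in the lowest and 9.37 in the median tumor, against 10.54, 10.32 and 10.57 in the normals, and fell by 1.04 ± 0.14 (SE, limma adjusted p = 0.00037), or 2.06-fold. Neither overlapped between the groups, with all tumors below all normals as for 20.0% of all genes. Sh3kbp1, an adaptor for receptor uptake, rose by 0.83, and the ubiquitin ligase gene Cblc fell by 0.61. The fall of Cblc did not pass with the median pixel (-0.31) or from the authors' deposited values (-0.41). Errfi1, an inhibitor of the Egfr kinase, differed by 0.13 ± 0.10 (SE) and did not pass.

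Of the adaptors and the RAS to ERK cascade, 2 of 15 tested members were higher and 4 lower, beside 25.9% and 23.7% of all genes, with a median difference of 0.00. Mapk3 (ERK1) and its kinase Map2k1 (MEK1) fell by 0.85 ± 0.17 and 0.66 ± 0.14 on the log2 scale (SE, limma adjusted p = 0.0026 and 0.0037), the phosphatase Ptpn11 rose by 0.48 and Nras by 0.50. None of these changes passed with the median pixel or from the authors' deposited values. Of 9 tested genes of the PI3K to AKT arm 3 rose and 0 fell, beside the same 25.9% and 23.7% of all genes. Among the rises were Akt2 by 0.83 ± 0.09 (SE, limma adjusted p = 0.00015) and the leukocyte kinase subunit Pik3cd by 0.47. Akt2 was 0.37 as the mean of its probes, and did not pass with the median pixel (limma adjusted p = 0.074) or from the authors' deposited values (0.13). Pik3cd was not above background in any normal and was at least 1.35-fold higher in tumors.

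Genes known to respond to ERK signalling had 7 of 14 tested members higher and 4 lower, beside 25.9% and 23.7% of all genes, with a median difference of 0.37. With 1 sample or mouse left out, 5 to 8 were higher and 0 to 4 lower. Phlda1 was 11.88 to 12.39 in tumors, against 10.48, 10.04 and 9.95 in the normals of mouse 41, mouse 42 and mouse 43, and rose 3.91-fold (log2 difference 1.97 ± 0.15, SE, limma adjusted p = 3.2e-05). Dusp4, a phosphatase that switches ERK off in the nucleus, rose 3.71-fold, the early response gene Ier3 3.22-fold and the transcription factor gene Etv5 2.54-fold. All 7 tumors lay above all 3 normals for each of the 4, as for 21.4% of all genes. The rise of Etv5 missed the threshold with the median pixel (limma adjusted p = 0.051) and within the earlier scan session (limma adjusted p = 0.073). The 4 members that fell were Fos, Etv4, Spry2 and Spred2, at -0.78, -0.37, -0.27 and -0.24.

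**Figure D3:**
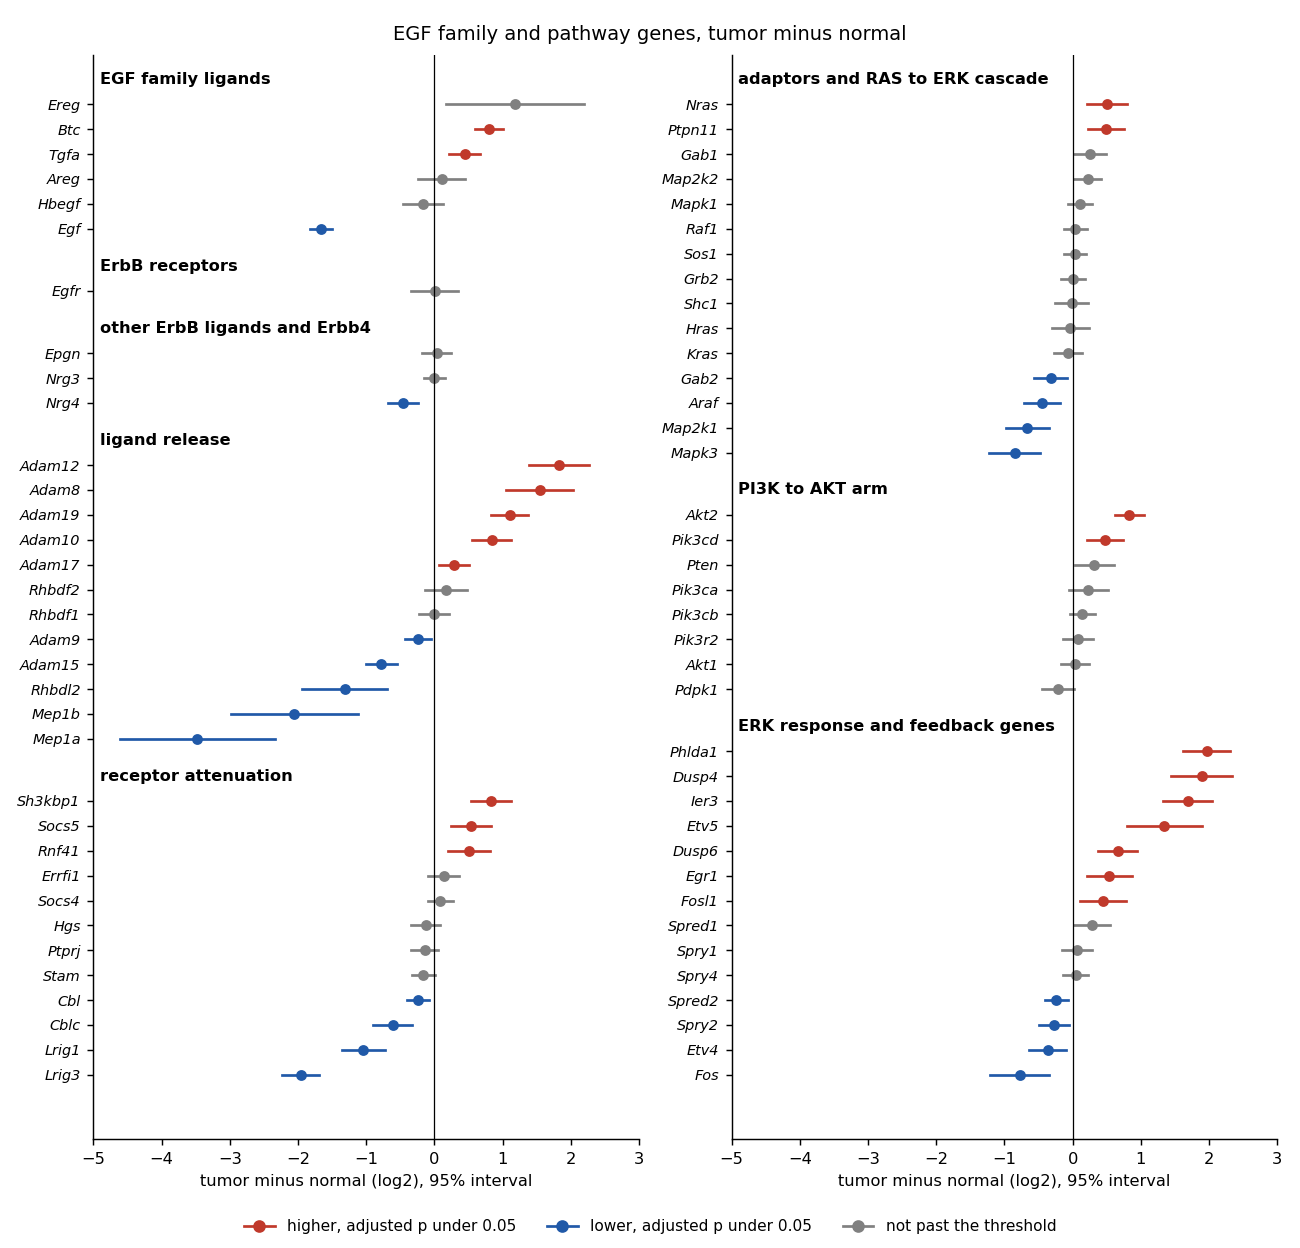
Tumor minus normal difference (log2, x axis) with its 95% interval for tested EGF family and pathway genes, grouped by role and coloured by call. Ligands and attenuators hold changes in both directions, Egfr and most of the RAS to ERK cascade lie near 0, and Phlda1, Dusp4 and Ier3 stand at 1.69 to 1.97.

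These pathway counts moved with the processing. With the median pixel, where 9.33% of genes were called higher and 9.57% lower, the ligand release list had 3 higher and 3 lower, the attenuators 2 and 2, the ERK response genes 3 and 0, the PI3K arm 1 and 0 and the RAS to ERK cascade 0 and 0. Within the earlier scan session, where 11.3% and 11.0% of genes were called, the same lists had 4 and 2, 1 and 2, 3 and 0, 2 and 0, and 0 and 1. Median scaling gave 6 higher in the PI3K arm, 8 higher and 1 lower among the ERK response genes, and 3 higher and 2 lower in the RAS to ERK cascade. With no replicate block the ERK response genes had 5 higher and 3 lower. With 1 sample or mouse left out the cascade had 0 to 3 higher and 2 to 4 lower, the attenuators 1 to 3 and 3 to 5, the release list 4 to 6 and 4 to 5, and the PI3K arm 1 to 3 and 0 to 1. Egf, Lrig1, Lrig3, Phlda1, Dusp4, Ier3, Adam8, Adam15, Adam19 and Sh3kbp1 passed in every alternative that tested them.

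**Figure D4:**
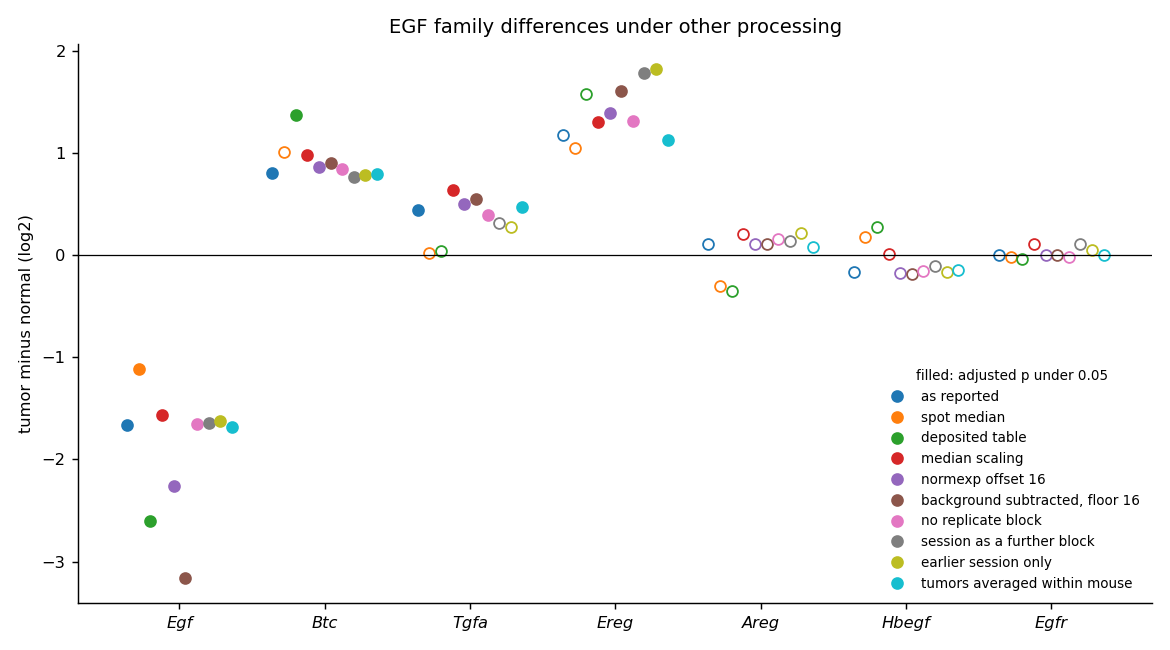
Tumor minus normal difference (log2, y axis) of the 7 measured EGF family genes as reported and under 9 other ways of processing, with filled points past an adjusted p of 0.05. Egf is lower in each, from -3.15 to -1.11, Btc and Ereg are higher in each, and Tgfa lies at 0.03 and 0.04 with the spot median and in the deposited table.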

How the data were processed

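The 10 MEEBO oligonucleotide arrays hold 1 sample each. Per the file headers they were scanned with GenePix Pro 4.1.1.4 on a 4000B scanner at 635 nm, and the deposited intensity values are spot and local background brightness in linear units. The authors' deposited table, also in linear intensity units, agreed within 0.1% with the spot median minus background times 1 factor per array for at least 99.6% of probes on each array, and the choice of factors is not stated in the files. It served as an alternative.

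Spot means were corrected with normexp (offset 50) and quantile normalized over 34312 gene probes, of which 43 were left out for bad spots. A spot counted as above background when its mean minus background passed the 99th percentile of 432 null spots, and a probe was kept if above on at least 3 arrays. The brightest probe stood for a gene, accessions were matched to RefSeq symbols (22987 probes had 1 symbol, 5232 only an accession and 6093 neither), and 14478 genes were tested with limma 3.58.1 (lmFit and eBayes, R 4.3.3), with the mouse as a block and Benjamini-Hochberg adjustment. Genes named beside the members were, by rule, up to 4 called genes of each pathway list with the lowest p, all other ErbB ligands, and the 3 genes most correlated with each member; any other named pathway gene was chosen after its values were seen, and 2 genes that the rule gives are not reported here. The number of arrays limits precision, and p-values measure the spread among samples of 3 animals. The pairing of samples comes from the labelled animals; tumor means and normals of the same mouse had correlations of deviations of 0.11, -0.07 and -0.08. Members and lists were chosen with earlier results of these data known.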

Additional observations from a re-analysis of the deposited data

How the results depend on the processing

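The tumor minus normal fit was repeated under 28 alternatives, and the replicate block of the mouse was removed or made random in 3 of them, once with the 2 arrays of high squamous markers also left out. Egf passed in all 27 that tested it and Btc in 27 of 28. Ereg passed in 11 of 28, among them the fit with no replicate block (1.31), and no other family call changed without that block. Areg, Hbegf and Egfr passed in none. Counts of genes higher and lower, 3749 and 3438 as reported, were 1355 and 1390 with the median pixel, 1493 and 1400 from the deposited values, and 1634 and 1588 within the earlier session. Leaving out 1 sample or mouse gave 2053 to 3882 higher and 1937 to 3478 lower, the lowest without mouse 42. Members called higher numbered 0 with the median pixel and 1 from the deposited values, and members called lower 0 when a probe had to be above background on all 10 arrays, which drops Egf. Tumors of mouse 42 against those of mouse 41 gave 32 genes as reported, 1 with the median pixel, 146 with median scaling, 2 from the deposited values and 2 to 111 with 1 sample left out. The difference of effects gave 58 genes as reported, 9, 45 and 0 under the same 3 settings, and 30 to 61 with 1 sample left out. The causes were not tested.

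The sign turned only in differences that passed no test. With the median pixel, Areg was -0.300, Hbegf 0.181, Egfr -0.0195 and Nrg3 -0.0346. From the deposited values, Areg was -0.351, Hbegf 0.274 and Egfr -0.0426, and the mean of the Egfr probes also gave -0.0426. Median scaling, which moved the median of all genes to 0.068, gave 0.0144 for Hbegf, -0.0201 for Epgn and -0.132 for Nrg3. With no replicate block Egfr was -0.0158 and Epgn -0.00739, and with a random one -0.0129 and -0.000868. Without the 2 arrays of high squamous markers they were -0.0692 and -0.0132. Nrg3 was -0.00127 with offset 16 and -0.00552 with tumors averaged within mouse. With 1 sample or mouse left out, Areg ran from -0.0950 to 0.204, Egfr from -0.0763 to 0.0636, Epgn from -0.0303 to 0.152 and Nrg3 from -0.0153 to 0.0168. Signal near background limits Egf in tumors, where it was above background in 5 of 7.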
